A study of Mus musculus with 18 samples.

Results

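Adrenomedullin and adrenomedullin 2, their receptor subunit Calcrl and its 3 partner proteins Ramp1, Ramp2 and Ramp3 were followed through 18 RNA sequencing libraries of mouse bone marrow MSCs. The 6 genes (Adm, Adm2, Calcrl, Ramp1, Ramp2 and Ramp3) were taken by name from the 27179 genes of the normalized count table. They were selected on their normalized counts in these same libraries, with the contrasts of all 3 groups known, so their levels and fold changes are given as a description, with standard errors and intervals and without p-values. All 6 passed the filter on low values, which asked for a mean of 10 or more over the 18 libraries. Ramp3 reached that mean only through the young libraries, and Ramp1 lay just above it at 12.4. With any single group set to 0, the mean of Ramp1 would have been 7.16 to 9.10, below the filter.

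MSCs are the adherent stromal cells grown from flushed marrow, here primary cultures from C57BL6 mice. Each group had 6 libraries from cultures of 7 days with 100000 cells per well. Young MSCs came from mice of 6 weeks and old MSCs from mice of 18 to 24 months, with no treatment described for either beyond the growth medium. Rejuvenated old MSCs were old MSCs that shared a well for 7 days with young MSCs on the other side of a Transwell membrane with pores of 0.4 µm, which soluble factors cross and cells do not. The sequenced groups held no arm in which old MSCs faced other old MSCs. The effect of a neighbouring cell layer and the effect of the age of its donors therefore cannot be told apart. The labels call the libraries of a group biological replicates without saying which animals they came from.

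Adrenomedullin is a secreted peptide best known for widening blood vessels, for vessel growth and for the tightness of the endothelial barrier, and its gene is a standard target of the hypoxia-inducible factors. Adrenomedullin 2, also called intermedin, is a related peptide. Both signal through the calcitonin receptor-like receptor, the product of Calcrl, which reaches the cell surface only with a receptor activity-modifying protein (RAMP). With RAMP1 it binds mainly calcitonin gene-related peptide, and with RAMP2 or RAMP3 it binds adrenomedullin. The bound receptor acts largely through the G protein Gs, adenylyl cyclase and cyclic AMP.

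The 250 bases before the start of Adm and Adm2 are shown because these ligands were the members with the largest rise in co-culture and lay in opposite order in young and old MSCs. Both are RefSeq promoter sequences of GRCm38.p6 on the plus strand, at chr7:110627407-110627656 for Adm and chr15:89322470-89322719 for Adm2. Capitals mark matches to GCGTG, read on either strand, which is one form of the core that hypoxia-inducible factors bind.
Adm: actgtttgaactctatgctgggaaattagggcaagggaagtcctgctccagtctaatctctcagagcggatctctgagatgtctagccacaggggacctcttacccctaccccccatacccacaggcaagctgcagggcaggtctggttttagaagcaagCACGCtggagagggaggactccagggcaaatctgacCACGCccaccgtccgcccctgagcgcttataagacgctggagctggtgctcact
Adm2: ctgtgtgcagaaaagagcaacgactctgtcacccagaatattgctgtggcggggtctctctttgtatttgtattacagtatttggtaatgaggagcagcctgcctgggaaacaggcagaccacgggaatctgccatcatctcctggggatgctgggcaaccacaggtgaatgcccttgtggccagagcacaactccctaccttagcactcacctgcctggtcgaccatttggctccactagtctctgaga
The Adm window held 2 such matches, both on the minus strand, at -90 to -86 and at -54 to -50 from the start, and the Adm2 window held 0. The other form, ACGTG, had no match in either window. Of 32851 mouse promoter windows of 250 bases, 38.6% held at least one of the 2 forms (16.6% ACGTG and 28.2% GCGTG). The short core of cyclic AMP response elements, TGACG on either strand, was found in 17.8% of all windows and in none of the 5 members with a promoter entry. Calcrl and Ramp1 held none of these motifs, and Ramp3 held GCGTG in 2 places.

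Reads on genes numbered 22936251 to 25648769 per young library, 24965971 to 29559194 per old library and 26018046 to 29155223 per rejuvenated old library. Expression was tested across 14353 genes with limma on log2(normalized count + 1), and a gene was called at a Benjamini-Hochberg adjusted p under 0.05. The Y-linked genes Ddx3y, Uty, Kdm5d and Eif2s3y had at most 2 reads in any young library, while Ddx3y lay at 1591 to 1871 normalized counts in old MSCs, although the methods name male donors only. Age and the source of this difference cannot be told apart in any comparison with young MSCs. The 14 macrophage markers summed to 697 to 781 normalized counts in young MSCs, to 15684 to 19779 in old MSCs and to 15757 to 19171 after co-culture. Of these markers, 8 never exceeded 3 reads in a young library, and Ptprc, which encodes CD45, had 0 reads there against 162 to 208 normalized counts in old MSCs. The 19 endothelial markers summed to 489 to 606 in young MSCs, to 374 to 410 in old MSCs and to 378 to 433 after co-culture. The endothelial cadherin gene Cdh5 had at most 4 reads in any library and Pecam1, which encodes CD31, at most 23. The 12 marrow stromal markers had high sums throughout, with 325290 to 350954 in young MSCs, 448490 to 474991 in old MSCs and 441908 to 473830 after co-culture. Of these 12 markers, 1 never exceeded 3 reads in an old library. Among them, Cd44 had means of 2137, 2954 and 2399, and Ly6a, which encodes Sca-1, had 25100, 6135 and 12899. The 11 pericyte and smooth muscle markers summed to 49076 to 51197, 124848 to 136437 and 123943 to 139943. Rejuvenated old replicate 1 stood apart in 58 genes that were at 100 or more in young MSCs and at 3 reads or fewer in every old library. Its median for these genes was 2.83% of the young mean, while the rest of its group had 0.00 to 0.108%.

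Adm was lowest in young MSCs, intermediate in old MSCs and highest after co-culture, so the change in co-culture led away from the young level. The gene (gene number 11535) is on the plus strand of chromosome 7 (GRCm38.p6, the build mm10), between 110627657 and 110629820. In young MSCs its normalized count ran from 67.8 to 115 with a median of 93.4 (mean 94.5 ± 17.0, SD, n = 6). Old MSCs had 1605 to 1833 with a median of 1679 (mean 1691 ± 80.03, SD, n = 6). Rejuvenated old MSCs had 3767 to 4950 with a median of 4134 (mean 4224 ± 439.5, SD, n = 6). Every library of a group lay above every library of the group before it. Rejuvenated old against old MSCs differed by 1.32 on the log2 scale (standard error 0.09, 95% interval 1.13 to 1.50), a mean 2.50 times as high. Between young and old MSCs it was -4.17 (standard error 0.09, 95% interval -4.35 to -3.98), with the old mean 17.9 times the young mean. The rejuvenated old mean was 44.7 times the young mean. Genes of chromosome 7 had a median log2 fold change in young against old MSCs that lay 0.64 above that of the autosomes, which is the direction opposite to that of Adm. In rejuvenated old against old MSCs the shift of chromosome 7 was 0.05. In bulk cultures, fewer cells of a type and less RNA per cell cannot be told apart.

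Adm2 had the reverse order to Adm between young and old MSCs, and it too rose in co-culture, here towards the young level. Adm2 (gene number 223780) lies on chromosome 15 from 89322720 to 89324731 on the plus strand. Its normalized count in young MSCs was 250.5 to 346.2 with a median of 332.2 (mean 313.7 ± 39.7, SD, n = 6). Old MSCs held 1 to 6 reads per library, or 0.962 to 6.45 normalized counts with a median of 3.52 (mean 3.56 ± 2.03, SD, n = 6). Rejuvenated old MSCs held 16 to 46 reads, or 15.5 to 44.3 normalized counts with a median of 32.7 (mean 31.8 ± 12.6, SD, n = 6). The 3 groups did not overlap. Within rejuvenated old MSCs, replicates 1, 3 and 5 lay at 44.3, 41.9 and 42.8 normalized counts and replicates 2, 4 and 6 at 23.6, 15.5 and 22.6. The log2 fold change was 2.88 (standard error 0.28, 95% interval 2.29 to 3.47) in rejuvenated old against old MSCs, with a mean 8.92 times as high. In young against old MSCs it was 6.23 (standard error 0.28, 95% interval 5.64 to 6.82), with a mean 88.0 times as high. Co-culture covered 9.10% of the difference between the old and the young mean, and young MSCs still had 9.87 times the rejuvenated old mean. The median of genes on chromosome 15 lay 0.23 above that of the autosomes in young against old MSCs.

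**Figure D1:**
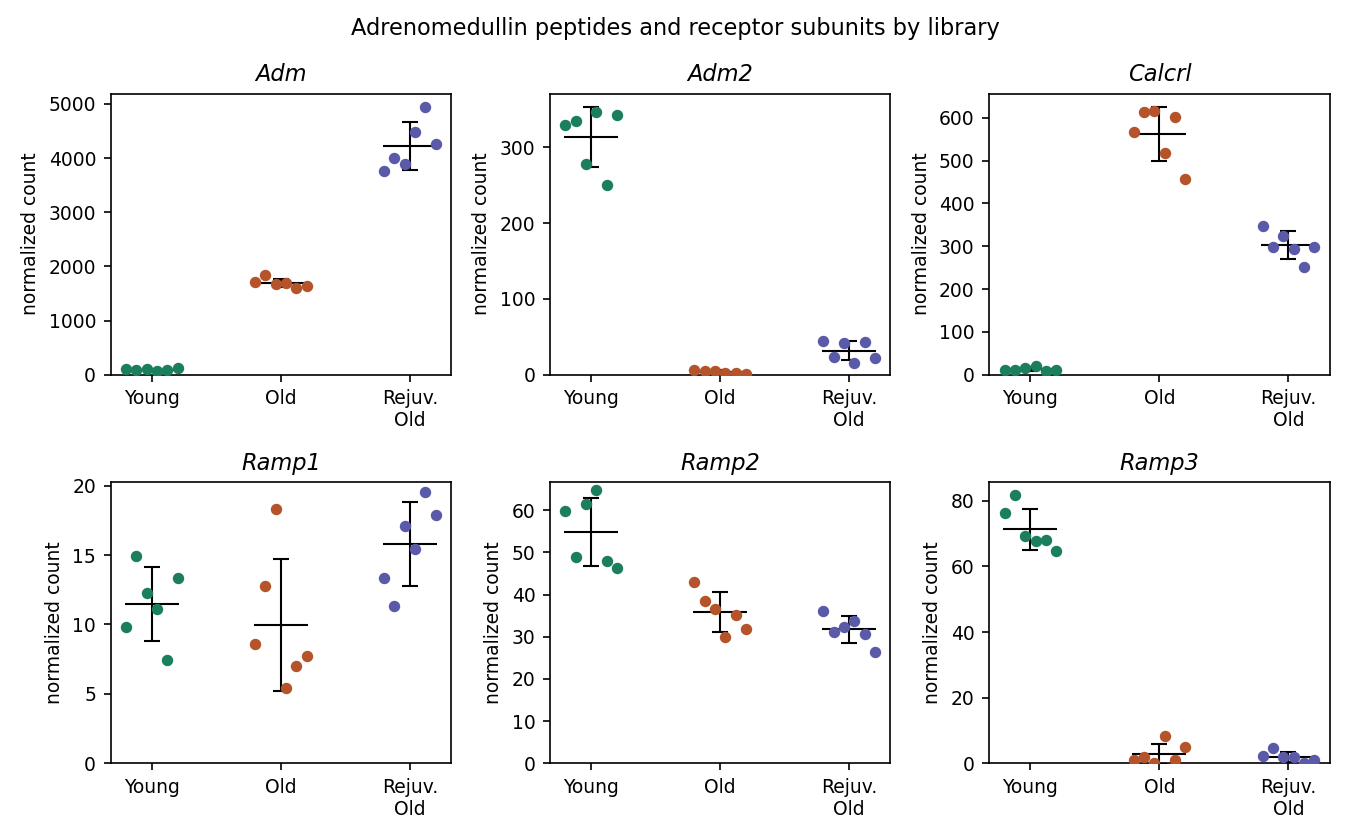
Normalized counts of the 6 genes (vertical axes, each panel with its own range from 0) in the 6 young, 6 old and 6 rejuvenated old libraries. Points are libraries, horizontal bars group means and whiskers SD; Adm rises from 94.5 to 1691 to 4224 over the group means, while Ramp3 is near 0 in both groups of old cells.

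The Adm2 reads of rejuvenated old MSCs are given beside those of 58 genes that young MSCs had at 100 or more and that never exceeded 3 reads in an old library. Adm2, at up to 6 reads in an old library, and Ramp3, at up to 9, do not meet that limit themselves. Adm2 reached 14.1, 7.52, 13.3, 4.93, 13.7 and 7.22% of its young mean in rejuvenated old replicates 1 to 6. The median of the 58 genes was 2.83% in replicate 1 and at most 0.108% in the other libraries, and the highest of the 58 reached 10.9, 5.94, 5.14, 7.82, 9.22 and 6.32% in replicates 1 to 6. Since these genes were picked for their lack of reads in old MSCs and Adm2 was not, the values are a description, and the part of young cell RNA in the Adm2 reads was not tested. Without replicate 1 the log2 fold change of Adm2 against old MSCs was 2.76. For Ramp3, which was also high in young MSCs, the same shares were 2.89, 6.62, 2.67, 2.71, 0.00 and 1.32%, on 5 reads or fewer per library. As a share of the young mean, Adm2 thus exceeded Ramp3 in all 6 libraries.

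**Figure D2:**
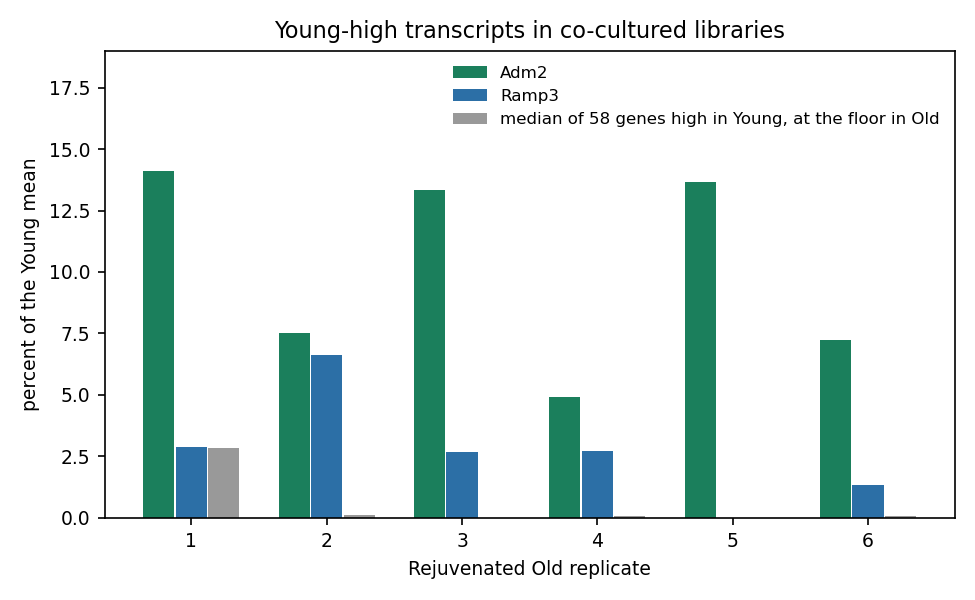
Level in each rejuvenated old library as a percentage of the young mean (vertical axis) for Adm2, Ramp3 and the median of 58 genes at 100 or more in young MSCs and at 3 reads or fewer in every old library. Adm2 is 4.93 to 14.1% in every replicate, whereas the median of the 58 genes is 2.83% in replicate 1 and at most 0.108% in the others.

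On normalized counts per kilobase of the RefSeq transcript, a scale on which genes can be compared, the more abundant ligand transcript differed between young and old MSCs. In young MSCs the level of Adm2 per kilobase was 242 ± 30.6 (SD, n = 6) and that of Adm was 68.0 ± 12.3 (SD, n = 6). Adm made up 15.5 to 24.6% of the sum of both ligands there (mean 22.0%). In old MSCs the level per kilobase was 1216 ± 57.6 (SD, n = 6) for Adm and 2.75 ± 1.57 (SD, n = 6) for Adm2, and Adm made up 99.6 to 99.9% of the sum. After co-culture Adm stood at 3039 ± 316.2 (SD, n = 6) per kilobase and Adm2 at 24.5 ± 9.73 (SD, n = 6). The share of Adm in the ligand sum was 98.8 to 99.6% in these libraries, so the rise of Adm2 left Adm the main ligand transcript.

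Calcrl, the subunit without which neither peptide has this receptor, was low in young MSCs, high in old MSCs and between these levels after co-culture. Calcrl (gene number 54598) lies on chromosome 2 from 84330626 to 84425405 on the minus strand. Young libraries held 7 to 20 reads, or 7.46 to 20.2 normalized counts with a median of 11.1 (mean 12.4 ± 4.48, SD, n = 6). Old libraries had 457 to 615 normalized counts with a median of 585 (mean 562 ± 63.6, SD, n = 6). Rejuvenated old libraries had 251 to 348 with a median of 298 (mean 302 ± 32.5, SD, n = 6). No library of one group lay within the range of another. Rejuvenated old against old MSCs gave a log2 fold change of -0.89 (standard error 0.15, 95% interval -1.21 to -0.57), with the old mean 1.86 times the rejuvenated old mean. For young against old MSCs it was -5.45 (standard error 0.15, 95% interval -5.77 to -5.13), with the old mean 45.4 times the young mean. Co-culture covered 47.3% of the difference between the old and the young mean on the linear scale, and the rejuvenated old mean remained 24.4 times the young mean. The sums of macrophage and of pericyte and smooth muscle markers were also far lower in young than in old MSCs, and each overlapped between old and rejuvenated old MSCs. Among the macrophage markers, Cd68 had 1073 to 1391 normalized counts in old and 912 to 1025 in rejuvenated old MSCs, which did not overlap, and Ptprc had 162 to 208 and 122 to 171, which did. The part of these cells in the levels of Calcrl was not tested.

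Of the 3 RAMP genes, Ramp3 differed most between young and old MSCs. Ramp3 (gene number 56089, chromosome 11 from 6658506 to 6677478, plus strand) had 64.9 to 81.7 normalized counts in young MSCs with a median of 68.7 (mean 71.3 ± 6.30, SD, n = 6). In old MSCs it had 0 to 9 reads, with a median of 1.52 normalized counts, and in rejuvenated old MSCs 0 to 5 reads, with a median of 1.92. Old replicates 4 and 6 held 9 and 5 reads and the other old libraries 2 or fewer. Both groups of old cells lay near the limit of detection, and no fold is given between them. Young against old MSCs gave a log2 fold change of 4.61 (standard error 0.44, 95% interval 3.71 to 5.51), with a mean 25.1 times as high. Ramp3 passed the filter on low values only through young MSCs, so it had to differ from them in old MSCs. Its exons overlap those of Gm11978 on the opposite strand, and since the strand setting of the counting was not stated, reads of the 2 genes cannot be told apart.

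Ramp2 (gene number 54409, chromosome 11 from 101246334 to 101248250, plus strand) was moderately higher in young MSCs and little moved by co-culture. Its normalized count was 46.3 to 64.8 in young MSCs with a median of 54.3 (mean 54.9 ± 8.05, SD, n = 6) and 30.0 to 43.0 in old MSCs with a median of 35.9 (mean 35.8 ± 4.69, SD, n = 6). Rejuvenated old MSCs had 26.4 to 36.0 with a median of 31.7 (mean 31.7 ± 3.25, SD, n = 6). Young libraries lay above all others, and the old and rejuvenated old libraries overlapped. The log2 fold change was 0.60 (standard error 0.13, 95% interval 0.33 to 0.87) in young against old MSCs and -0.17 (standard error 0.13, 95% interval -0.44 to 0.10) in rejuvenated old against old MSCs. Exons of Ramp2 overlap those of Vps25 on the same strand, so some of its reads may be shared.

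Ramp1 (gene number 51801, chromosome 1 from 91179822 to 91225196, plus strand) was low everywhere, at 6 to 21 reads per library. Young MSCs had 7.46 to 14.9 normalized counts with a median of 11.7 (mean 11.5 ± 2.66, SD, n = 6), and old MSCs had 5.45 to 18.3 with a median of 8.15 (mean 9.98 ± 4.77, SD, n = 6). Rejuvenated old MSCs had 11.3 to 19.6 with a median of 16.3 (mean 15.8 ± 3.04, SD, n = 6). All 3 groups overlapped, with old replicate 3 at 18.3 above 5 of the rejuvenated old libraries. The log2 fold change was 0.69 (standard error 0.25, 95% interval 0.17 to 1.21) in rejuvenated old against old MSCs and 0.26 (standard error 0.25, 95% interval -0.26 to 0.78) in young against old MSCs. The median of genes on chromosome 1 lay 0.66 below that of the autosomes in young against old MSCs.

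**Figure D3:**
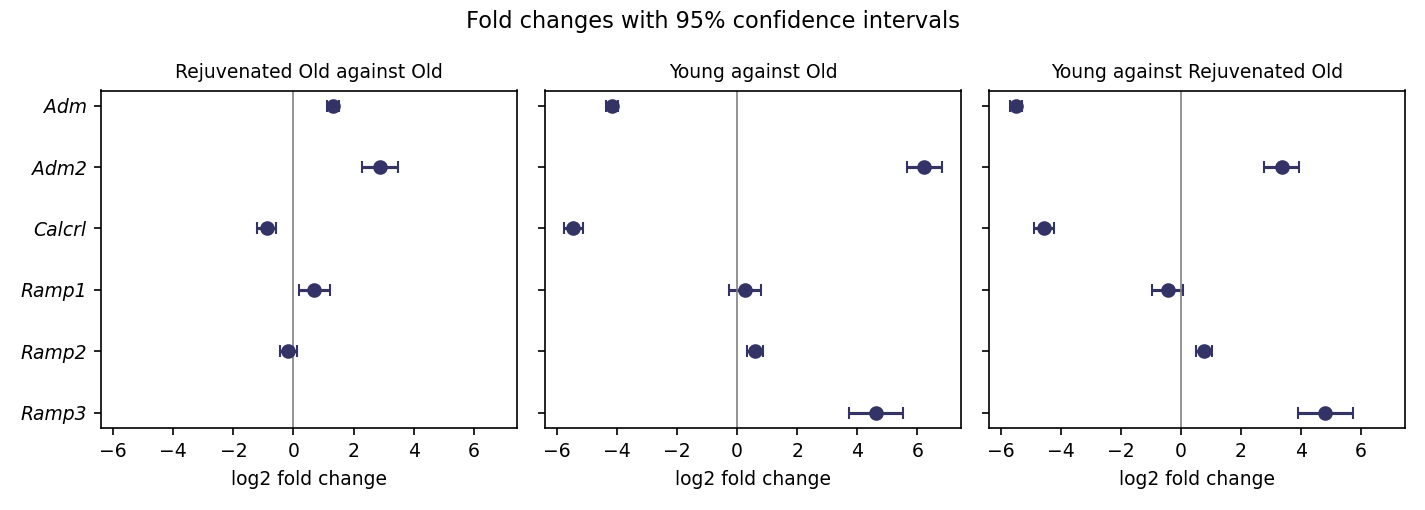
Log2 fold changes of the 6 genes (horizontal axes, on log2(normalized count + 1)) in 3 comparisons, with 95% confidence intervals from limma as bars. In rejuvenated old against old MSCs, Adm2 (2.88) and Adm (1.32) lie to the right of 0 and Calcrl (-0.89) to the left; Ramp3 is not drawn in that panel, since both groups held 9 reads or fewer per library.

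In rejuvenated old against old MSCs, 3 members passed the limma threshold as higher (Adm, Adm2 and Ramp1) and 1 as lower (Calcrl), where 41.6% of all genes tested were called, 21.0% higher and 20.6% lower. The Ramp1 call was lost when old replicate 1, 4, 5 or 6 or rejuvenated old replicate 3, 5 or 6 was left out, with fold changes of 0.56 to 0.88 over all fits that left out 1 library, and also with DESeq2 and with no filter on low values. The groups did not overlap for 3 members, as for 22.0% of all genes. In young against old MSCs, 3 members were called higher (Adm2, Ramp2 and Ramp3) and 2 lower (Adm and Calcrl), against 85.7% of all genes called (41.6% higher and 44.1% lower), and in young against rejuvenated old MSCs the counts were again 3 and 2, against 85.6% of all genes called (41.5% and 44.1%). The ranges of 5 members did not overlap in either comparison, as for 73.9% and 70.5% of all genes. Ramp3 is among the members called and not overlapping in both comparisons with young MSCs, a difference that the filter favoured. Since the members were chosen with these contrasts known, nothing is read from the counts. The median log2 fold change of the members was 0.26 after co-culture and 0.43 in young against old MSCs, beside medians of 0.01 and -0.02 over all genes tested.

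The makeup of the receptor transcripts per kilobase differed between young and old MSCs and changed less in co-culture. In young MSCs, Ramp3 made up 47.9 to 58.1% of RAMP transcripts per kilobase (mean 53.0% ± 3.80, SD, n = 6), Ramp2 36.3 to 47.9% (mean 42.5%) and Ramp1 3.23 to 5.89%. In old MSCs, Ramp2 made up 73.9 to 88.9% (mean 82.0% ± 5.84, SD, n = 6), Ramp1 6.81 to 20.2% and Ramp3 0.00 to 19.3%. Rejuvenated old MSCs had 72.6 to 80.5% Ramp2 (mean 76.2% ± 2.66, SD, n = 6), 13.9 to 25.0% Ramp1 and 0.00 to 10.9% Ramp3. Ramp2 was the main RAMP transcript in all 12 libraries of old cells. The sum of the RAMP transcripts was 109 ± 8.53 (SD, n = 6) normalized counts per kilobase in young MSCs, against 37.0 ± 3.28 (SD, n = 6) for old MSCs and 35.3 ± 2.498 (SD, n = 6) after co-culture. Calcrl ran the other way, at 2.54 ± 0.918, 115 ± 13.0 and 61.9 ± 6.67 (SD, n = 6 each). Per transcript of Calcrl there were 47.0 ± 13.7 (SD, n = 6) RAMP transcripts in young MSCs, 0.323 ± 0.0330 (SD, n = 6) in old MSCs and, after co-culture, 0.575 ± 0.0599 (SD, n = 6). This ratio ranged over 27.7 to 64.9 in young MSCs, over 0.273 to 0.365 in old MSCs and over 0.506 to 0.670 after co-culture. Thus Calcrl was the scarcer transcript in young MSCs and the more abundant in both groups of old cells. These shares depend on the transcript lengths: with all exons of each gene joined, a length chosen after the data were seen, Ramp3 made up 71.7% and Ramp2 23.1% in young MSCs, and Ramp2 67.2% in old MSCs.

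**Figure D4:**
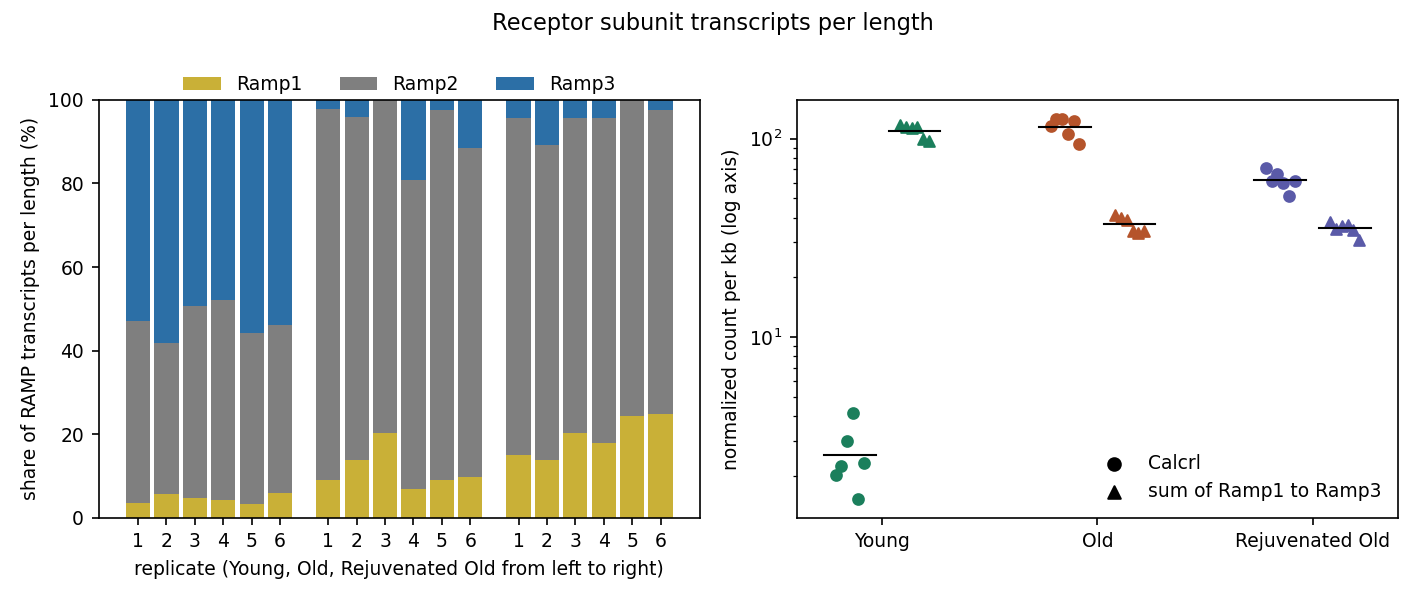
Left, share of RAMP transcripts per kilobase (vertical axis, percent) taken by Ramp1, Ramp2 and Ramp3 in each library. Right, normalized counts per kilobase on a log axis for Calcrl (circles) and the sum of the RAMP genes (triangles), where bars are group means; the RAMP sum lies above Calcrl in all young libraries and below it in all old and rejuvenated old libraries.

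Genes of peptide processing and clearance and genes of related receptors formed a list of 24 genes, of which 12 could be tested. The list includes receptors for other ligands, such as Vipr2, so its counts do not describe adrenomedullin processing and clearance alone. In rejuvenated old against old MSCs, 6 were called higher and 4 lower (limma, median log2 fold change 0.14), where 41.6% of all genes were called. Between young and old MSCs 5 were called higher and 6 lower (median -0.70), where 85.7% of all genes were called. Of the 12 tested, 3 passed the filter on low values only through the young libraries, among them Ackr3 and Vipr2. All 3 are among the 5 called higher in young MSCs, a difference that the filter favoured. Pam, the enzyme that amidates adrenomedullin and many other peptides, had a mean of 2820 in young MSCs, which was 11982 in old MSCs and 10054 after co-culture. It was lower after co-culture by limma, with a log2 fold change of -0.26 (standard error 0.05, adjusted p = 0.000477), and lower in young than in old MSCs, with -2.09 (adjusted p = 2.85e-20). Mme, which encodes neprilysin, a peptidase that degrades peptide hormones, had means of 15.9, 1893 and 1509. Its log2 fold change was -6.85 in young against old MSCs (limma, adjusted p = 3.18e-23) and -0.33 after co-culture (adjusted p = 0.0343). The latter call was lost without old replicate 2, 3, 4 or 5 or rejuvenated old replicate 3 or 5, with values of -0.27 to -0.33. It was also lost with no filter on low values and with a prior variance shared by all genes. Ackr3, a receptor that takes up adrenomedullin and Cxcl12 without G protein signalling, had the order of Adm2, with a mean of 498 in young MSCs, 2.98 in old MSCs and 11.2 after co-culture. Having passed the filter through young MSCs, it had to differ from them in old MSCs, and no p is given there. Its log2 fold change was 1.60 after co-culture by limma (standard error 0.42, adjusted p = 0.00414), or 1.30 without rejuvenated old replicate 1. Without young MSCs these levels of Ackr3 would not have passed the filter. The part of young cell RNA in the Ackr3 reads after co-culture was not tested. Vipr2, a related receptor for vasoactive intestinal peptide, had means of 55.0, 4.18 and 7.67. Its change of 0.83 after co-culture was called with limma (adjusted p = 0.0401), on levels that without young MSCs would not have passed the filter. It was not called with edgeR or DESeq2, nor without old replicate 2, 4 or 5 or rejuvenated old replicate 1, 4, 5 or 6, where values were 0.58 to 0.83. Calcr, the calcitonin receptor, which also pairs with RAMPs, had at most 2 reads in any library and was not tested. The same held for Calcb with at most 2 reads and Iapp with at most 1, while Calca, which encodes calcitonin and calcitonin gene-related peptide, reached 17 reads at most.

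Downstream of the receptor, 37 of 40 genes of Gs and cyclic AMP signalling were tested. After co-culture 7 were called higher and 7 lower (limma, median log2 fold change 0.02), where 41.6% of all genes were called. Between young and old MSCs 10 were called higher and 25 lower (median -0.51), where 85.7% of all genes were called. Of the 37 tested, 2 passed the filter on low values only through the old libraries, among them Adcy8. Both are among the 25 called lower, a difference that the filter favoured, and Adcy8 is also among the 7 called lower after co-culture. The largest rises after co-culture were those of Adcy1, an adenylyl cyclase, by 0.78 (limma, adjusted p = 0.000102) and of Prkar1b, a regulatory subunit of protein kinase A, by 0.52 (adjusted p = 1.16e-07). Prkar1b had a mean of 519 in young MSCs, 357 in old MSCs and 511 after co-culture. The largest falls were those of Adcy8, another adenylyl cyclase, with a log2 fold change of -2.12, and of Rapgef4, an exchange factor activated by cyclic AMP, with -1.04 (limma, adjusted p = 0.00236). No p is given for Adcy8, which passed the filter only through old MSCs. Adcy8 had means of 10.1, 38.6 and 8.60 in young, old and rejuvenated old MSCs. Those of Rapgef4 were 3.86, 76.6 and 36.3, the order of groups that Calcrl had.

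Because Adm is a hypoxia target, it was set beside a list of 40 other genes that low oxygen induces, all of which were tested. After co-culture 31 were called higher and 4 lower (limma, median log2 fold change 0.74, beside 0.01 over all genes), where 21.0% of all genes were called higher and 20.6% lower. In young against old MSCs 27 were called higher and 12 lower (median 0.92), where 41.6% and 44.1% of all genes were. This list, as the other lists, was chosen with earlier results of these data known, so these counts and the p-values below are a description. The largest rises after co-culture were those of Ndufa4l2, a mitochondrial protein, with a mean of 2254 in young MSCs, 159.7 in old MSCs and 3035 after co-culture and a log2 fold change of 4.23 (adjusted p = 1.31e-23), and of Egln3, an oxygen-sensing prolyl hydroxylase, with 2.37 (adjusted p = 2.57e-13). Vegfa, the main vascular growth factor, had means of 7552, 8422 and 14019 and rose by 0.73 (limma, adjusted p = 2.92e-10). Slc2a1, the glucose transporter GLUT1, rose by 0.34 (limma, adjusted p = 3.03e-06). The largest falls were in Car12, a carbonic anhydrase, with -1.68 (limma, adjusted p = 1.46e-08), and Pfkfb3, a regulator of glycolysis, with -0.52 (adjusted p = 1.07e-07). Among these 40 genes, 5 had a larger log2 fold change than Adm after co-culture and 1 had a larger one than Adm2. In young against old MSCs the fold changes of the list ran from -2.15 to 8.71, so that all 40 lay above Adm at -4.17, and 2 lay above Adm2 at 6.23. Of the 40 genes, 1 passed the filter on low values only through the young libraries, so it had to differ from them in old MSCs. It is the gene at 8.71, and it is among the 27 called higher and the 2 above Adm2. Both comparisons share the old libraries.

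**Figure D5:**
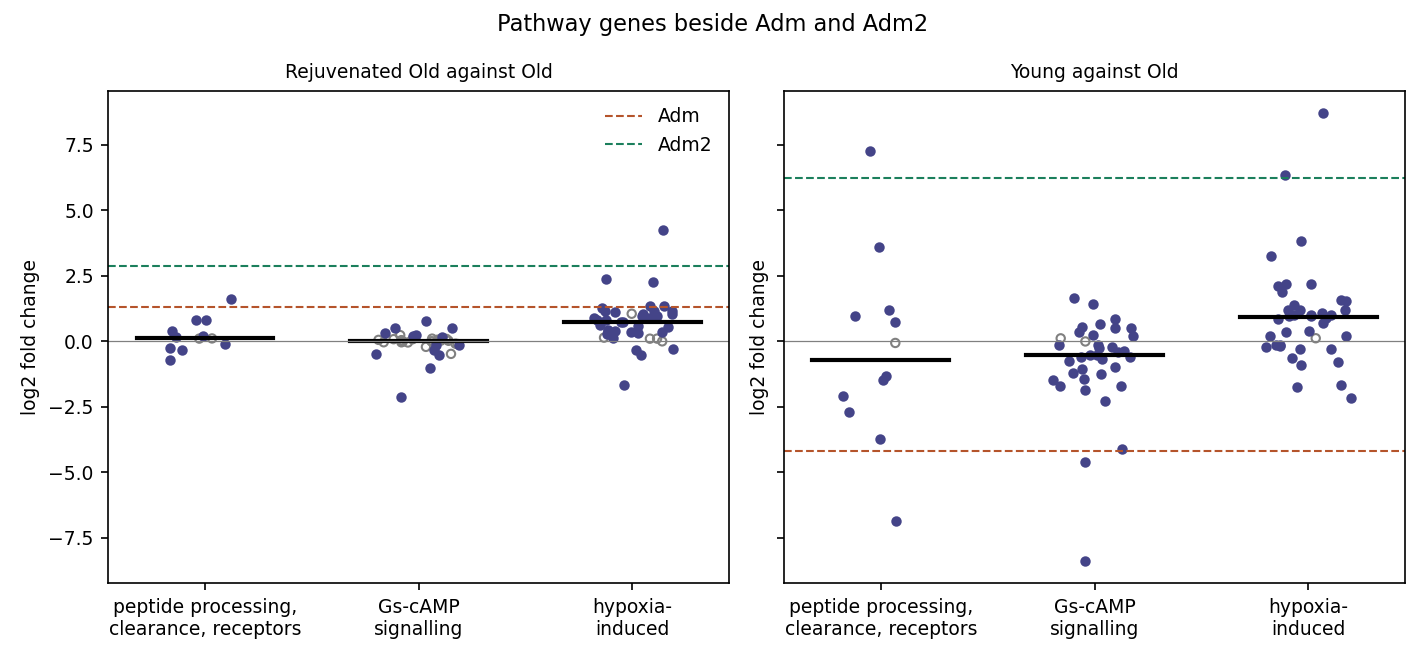
Log2 fold changes (vertical axes) of tested genes of 3 lists in rejuvenated old against old MSCs (left) and young against old MSCs (right). Filled points passed the limma threshold, open points did not, black bars are list medians and dashed lines mark Adm (1.32 left, -4.17 right) and Adm2 (2.88 left, 6.23 right); Adm lies below every hypoxia-induced gene on the right.

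The genes whose log2 levels ran most like each member over the 18 libraries were found by Pearson's r, as a description. The points fall into 3 groups that share culture and processing, so r reflects mainly the order and spacing of the group means. Those like Adm included Tacc1 (r = 0.998), Micall2, Thbd, which encodes thrombomodulin, and Mark1 (r = 0.996). Thbd had a mean of 521 in young MSCs, 9303 in old MSCs and 20086 after co-culture. For Adm2 they were Gpi1, a glycolytic enzyme (r = 0.986), Nxph4, a neurexophilin, with means of 852, 25.4 and 128, and Isg20 (r = 0.984). Calcrl was most like Eda2r, a receptor of the tumour necrosis factor receptor family (r = 0.997), Pi4ka and Tmem37. Ramp3 was most like Chpf2, which takes part in chondroitin synthesis (r = 0.974), Ecel1 and Pttg1ip, of which Ecel1 had means of 65.7, 1.63 and 0.807. Ramp2 was most like Zfp943 (r = 0.943), Sdcbp and Nudt2. The low counts of Ramp1 gave weaker likeness, with r of 0.80 for Pgls and Tmem243 and 0.79 for Mrpl12. After removal of the group means, r between Adm and Tacc1 was 0.47 and that between Adm2 and Gpi1 was 0.49.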

How the data were processed

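Messenger RNA of 18 MSC cultures, 6 per group, was sequenced from Illumina TruSeq Stranded mRNA libraries. The authors aligned reads to mm10 with HISAT2, assembled transcripts and counts by StringTie and featureCounts, and scaled counts by DESeq2, all on Galaxy; versions, annotation, strand setting and filters are not given in the sources used here. Their deposited normalized count is a signal, the reads on a gene over a size factor of its library. All values of a library were whole multiples of one step (100% within 0.01 of a whole read), from which reads and depth were recovered. Groups were taken from the sample labels.

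Values were analysed as log2(value + 1) with limma 3.58.1 in R 4.3.3, with all 18 libraries in 1 fit, a prior variance following the mean, and Benjamini-Hochberg adjustment over 14353 genes (mean 10 or more). The pseudocount understates fold changes of low genes. On the recovered reads, edgeR 4.0.16 (quasi-likelihood) called 6213 genes and DESeq2 1.42.0 called 6345 between rejuvenated old and old MSCs, beside 5971 with limma, where 6972 had an unadjusted p under 0.05. Lengths, positions and promoters came from GENCODE vM21 and RefSeq on GRCm38.p6; 5 of 6 members had a promoter entry.

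The members and gene lists were chosen with earlier results of these data known. Genes were named by rule: the members, the 2 largest rises and falls in co-culture of each pathway list, Pam, Ackr3, Mme, Calcr, Vegfa and Slc2a1, defining markers, and the 5 genes most like Adm and 3 most like each other member. Calca, Calcb, Iapp and the Y-linked genes were named after their values were seen. Some genes that the rule names are not reported here. Alternatives covered pseudocount, filter, scaling, prior variance, samples fitted, count tests, a replicate block, transcript length and each library left out. Same-numbered libraries of different groups did not deviate together (r at most 0.0736), so numbers do not pair them. The fit was tested on simulated data. Nothing in the labels ties libraries to animals, so p-values measure the spread between these libraries.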

Additional observations from a re-analysis of the deposited data

Results flagged for a closer look

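Single libraries were compared with the rest of their group by Dixon's test for 46 genes named with values, in 3 groups each, and 5 of the 138 sets of 6 libraries had a value past the 95% limit, where chance gives about 1 in 20. None was a member. Rejuvenated old replicate 5 had 1235 normalized counts of Mme, while the rest of its group had 1501 to 1618. The same library had 821 of Pgls, against 697 to 732. Young replicate 5 had 9.59 of Rapgef4, against 1.99 to 4.12. Young replicate 4 had 30.4 of Tmem37, against 20.3 to 23.5. Old replicate 4 had 6980 of Pttg1ip, against 6474 to 6661.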

How the results depend on the processing

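No called fold change of a member changed sign under the alternatives tried. When each of the 18 libraries was left out in turn, 5439 to 5994 genes and 3 to 4 members were called between rejuvenated old and old MSCs. Fold changes of members moved beyond the spread between replicates only with a pseudocount of 10. In rejuvenated old against old MSCs it gave 1.58 for Adm2. In young against old MSCs it gave 4.58 for Adm2, -4.69 for Calcrl and 2.69 for Ramp3, and in young against rejuvenated old MSCs -3.82 for Calcrl and 2.78 for Ramp3; the larger constant shrinks such values by construction. With a mean of at least 50 required, 3 members were called in young against old and 3 in young against rejuvenated old MSCs, since fewer members were tested. Scaling to the same total ended the call of Vegfa in young against old MSCs (limma, log2 fold change -0.09, against -0.16). With the replicate number as a block, 5769 genes were called between rejuvenated old and old MSCs and the member counts stayed at 4, 5 and 5; same-numbered libraries had correlations of -0.152 to 0.0736 in that comparison, so the labels share only a number. Joined exon lengths moved the receptor makeup, with RAMP transcripts per Calcrl transcript at 31.2 in young MSCs, 0.142 in old MSCs and 0.264 after co-culture. By within-group r or rank correlation, most of the genes most like Adm, Adm2, Calcrl, Ramp2 and Ramp3 were others. For Ramp1, 1 to 2 of its 3 genes were kept. Depth limits Ramp3 in old cells, Adm2 in old MSCs, Calcrl in young MSCs and Ramp1 throughout.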
